A study of Mus musculus with 36 samples.

Results

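Macrophages handle lipid through a network of 47 genes examined here, covering lipid uptake, cholesterol export, droplet storage, lipolysis, sterol and fatty acid synthesis and beta oxidation. They were chosen by gene symbol, and all 47 were present among the 12795 genes of the count table. The cells were cardiac macrophages, purified by flow sorting from mouse hearts and split by the chemokine receptor CCR2 into a CCR2pos and a CCR2neg fraction. The mice were fed tamoxifen for 7 days, underwent 90 min of cardiac ischemia, and were sampled 7 days later.

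Each fraction was sequenced in 4 groups. The mac-TFEB group (4 libraries per fraction) carried the TFEB-TG cassette, in which TFEB expression is blocked by a floxed stop sequence, and expressed Cre. The CX3CR1-Cre group (5 libraries per fraction) was TFEB-wt, without the cassette, and expressed Cre. The other two groups are labelled Cre-neg, with TFEB-TG (4 libraries per fraction) or TFEB-wt (5 libraries per fraction). The labels give every sample the same line description, an inducible Cre under Cx3cr1 with a Td-Tomato reporter behind a floxed stop, and the sources used here do not say what distinguishes the Cre-neg samples. Cre under Cx3cr1 acts in cells that express this fractalkine receptor, so it is not limited to 1 kind of cardiac macrophage. The labels do not say that libraries came from separate animals, so p-values measure the spread between libraries.

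As background, macrophages take up modified lipoproteins and dead cells, hydrolyse cholesteryl esters in the lysosome and store the excess lipid in droplets coated by perilipins. Liver X receptors sense oxysterols and switch on cholesterol export through Abca1, Abcg1 and Apoe, whereas SREBP transcription factors switch on sterol and fatty acid synthesis when sterols are scarce. TFEB is a transcription factor of lysosome biogenesis and autophagy that binds the CLEAR element, a sequence built around CACGTG. In the infarcted heart, macrophages clear lipid-rich debris, and these pathways set how that lipid is stored, exported or burned.

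Library totals lay between 13797484 and 32645783 counts. The 9 macrophage marker genes were all measured, with a summed level of 27370 to 42420 CPM (counts relative to library size, with TMM scaling) in each library. Tfeb itself was 335, 250, 98.1 and 67.4 CPM in CCR2neg mac-TFEB libraries 1 to 4 and 6.66 to 8.87 CPM in CCR2neg CX3CR1-Cre libraries, and in CCR2pos cells 60.4 to 280 CPM against 4.42 to 11.5 CPM. TFEB-TG Cre-neg libraries had 12.4 to 51.0 CPM of Tfeb, above the 4.57 to 10.9 CPM of TFEB-wt Cre-neg libraries. Ccr2 ranged from 302 to 1247 CPM in CCR2pos libraries and from 27.3 to 114 CPM in CCR2neg libraries, without overlap. Xist was 0.09 to 0.40 CPM in library 1 of each TFEB-wt group and libraries 1 and 2 of each TFEB-TG group. In all others it was 71.1 to 130 CPM, so TFEB-TG and TFEB-wt groups hold unequal shares of libraries with Xist. A term for Xist, used below, separates these libraries at 10 CPM. Library 1 of CCR2neg TFEB-TG Cre-neg and library 1 of CCR2neg mac-TFEB stood apart: their summed endothelial markers were 197 and 236 CPM, against 16.9 to 140 CPM in the other CCR2neg libraries, and their mural markers 200 and 196 CPM, against 9.49 to 100.5 CPM. Member calls are given with and without both for 3 comparisons. These are CCR2neg mac-TFEB against CX3CR1-Cre, the cassette in CCR2neg Cre-neg cells, and the fractions of TFEB-TG Cre-neg cells. Most other results that use them are given with both in place. Other marker lists did not single out these libraries alone. In CCR2neg cells the highest fibroblast sums were 602 CPM in TFEB-wt Cre-neg, 569 in TFEB-TG Cre-neg, 380 in CX3CR1-Cre and 303 CPM in mac-TFEB libraries. The measured mast cell markers reached 54.9 CPM in a CX3CR1-Cre library, against at most 6.43 CPM in the other CCR2neg groups. The part of these cell types in member values was not tested.

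Per kilobase of exon, the members ranged widely over all libraries. Apoe, the apolipoprotein that accepts exported cholesterol, was first at a mean of 6627 CPM per kb, and Plin2, the perilipin that coats macrophage lipid droplets, was second at 478. Elovl1, an elongase of very long chain fatty acids, followed at 90.0, then the scavenger receptor Msr1 at 84.1 and the cholesterol exporter Abcg1 at 83.9 CPM per kb. The least abundant per kb were Acaca, the acetyl-CoA carboxylase that commits carbon to fatty acid synthesis, at 0.161, and Idi1, an isomerase of the sterol pathway, at 0.453 CPM per kb.

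Plin2 was higher in CCR2neg mac-TFEB macrophages than in CCR2neg CX3CR1-Cre macrophages, and it was the member called in that comparison. It had 1905, 1779, 1939 and 2309 CPM in CCR2neg mac-TFEB libraries, against 1145, 1140, 1348, 1138 and 1200 CPM in CCR2neg CX3CR1-Cre libraries. Every mac-TFEB library lay above every CX3CR1-Cre library. The log2 fold change was 0.73 ± 0.14 (SE, adjusted p = 0.00346, edgeR's quasi-likelihood test with Benjamini-Hochberg adjustment over 12795 genes). The call held when each of the 9 libraries was left out in turn, with log2 fold changes of 0.65 to 0.78. Over all genes 1.38% were called in this comparison, so 1 call among 47 members lies near the background. In bulk libraries of this kind, less RNA per cell and fewer cells of a type cannot be told apart.

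Among the CCR2neg groups, CX3CR1-Cre had the lowest mean of Plin2. CCR2neg TFEB-TG Cre-neg libraries had 1874, 2082, 1997 and 2079 CPM, and CCR2neg TFEB-wt Cre-neg libraries had 1228, 1764, 1983, 1462 and 1903 CPM. The mac-TFEB libraries thus overlapped both Cre-neg groups. With mac-TFEB over TFEB-TG Cre-neg, both carrying the cassette, the log2 fold change of Plin2 was -0.02 ± 0.15, with a 95% interval of -0.31 to 0.28. With CX3CR1-Cre over TFEB-wt Cre-neg it was -0.48 ± 0.13 (adjusted p = 0.0440), a fall in the CX3CR1-Cre cells. That call was lost when any of 7 of the 10 libraries was left out (CX3CR1-Cre 1, 2, 4 or 5, or Cre-neg 2, 3 or 5), with a highest adjusted p of 0.143.

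The CX3CR1-Cre and TFEB-wt Cre-neg groups are both TFEB-wt and are labelled apart by Cre, but what that label separates is not given. Their comparison therefore cannot tell an effect of Cre from any other difference between the groups. This comparison uses the same CX3CR1-Cre libraries as the one with mac-TFEB cells, so they are not independent of each other. In CCR2neg cells, 3 of the 47 members fell in CX3CR1-Cre cells and none rose, against 2.6% of all genes called. Nr1h3, which encodes the liver X receptor LXRα, had 19.2, 25.3, 12.5, 16.2 and 19.0 CPM in CX3CR1-Cre libraries, against 25.5, 62.9, 43.8, 34.5 and 59.6 CPM in TFEB-wt Cre-neg libraries. The groups did not overlap, though the highest CX3CR1-Cre and lowest Cre-neg values were close, and the log2 fold change was -1.30 ± 0.22 (adjusted p = 9.61e-04). Acly, the ATP citrate lyase that supplies cytosolic acetyl-CoA, had 164, 153, 163, 170 and 151 CPM in CX3CR1-Cre libraries, against 201, 253, 189, 226 and 282 CPM in TFEB-wt Cre-neg libraries. These groups did not overlap either, and the log2 fold change was -0.52 ± 0.12 (adjusted p = 0.0144). The Nr1h3 call held with each of the 10 libraries left out, whereas Acly was not called without TFEB-wt Cre-neg library 5 (highest adjusted p 0.0675).

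With the replicate number within a genotype as a block, 9 members were called in the same comparison, 1 higher and 8 lower, against 7.54% of all genes. Beside Nr1h3, Acly and Plin2, those lower in CX3CR1-Cre cells were Scd2, a stearoyl-CoA desaturase (-0.75 ± 0.19), Msr1 (-0.39 ± 0.10), Hmgcs1, the HMG-CoA synthase of the sterol pathway (-0.38 ± 0.11), Abca1 (-0.33 ± 0.09) and Msmo1, a sterol demethylase (-0.29 ± 0.08). Lipe, the hormone-sensitive lipase, was higher at 0.55 ± 0.17. All are blocked log2 fold changes. In CCR2pos cells, no member was called between CX3CR1-Cre and TFEB-wt Cre-neg with edgeR, DESeq2 or limma-voom, against 0.00782% of all genes. There 2 members were higher and 1 lower at an unadjusted p under 0.05. The replicate block called no member there, with 134 of all 12795 genes called. Nr1h3 in CCR2pos cells was 17.2, 17.9, 22.7, 20.3 and 21.2 CPM in CX3CR1-Cre libraries and 16.2, 35.1, 37.0, 28.1 and 26.0 CPM in TFEB-wt Cre-neg libraries (log2 fold change -0.52 ± 0.22, adjusted p = 0.79).

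**Figure D1:**
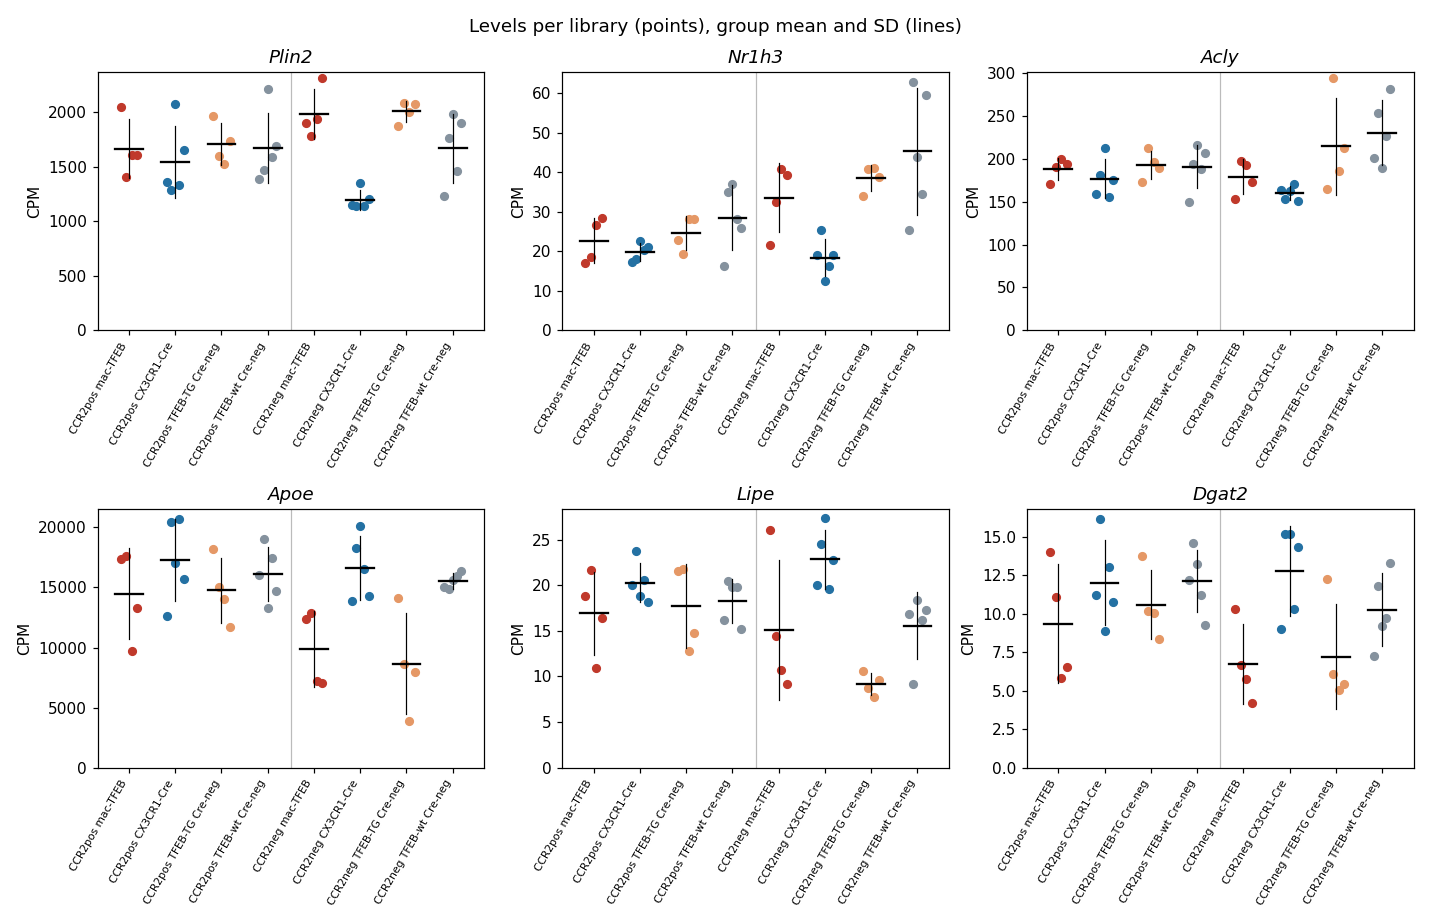
Levels of 6 members in CPM (vertical axis) for each library (points), with group means (horizontal lines) and SD (vertical lines). Each panel is 1 gene, and the groups are CCR2pos left of the grey line and CCR2neg right of it. Among the CCR2neg groups the CX3CR1-Cre libraries have the lowest means for Plin2 (1138 to 1348 CPM) and Nr1h3 (12.5 to 25.3 CPM). For Nr1h3 the CCR2pos CX3CR1-Cre libraries (17.2 to 22.7 CPM) lie within that range.

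The promoters of the members called together are shown because Plin2, Nr1h3 and Acly fell in the same cells and Lipe and Fasn rose together between fractions, as described further on. In GRCm38 these genes lie on the minus strand, Plin2 at chr4:86648386-86670060, Nr1h3 at chr2:91184061-91202834, Acly at chr11:100476353-100528000, Lipe at chr7:25379527-25398710 and Fasn at chr11:120805846-120824547. Promoter windows of 300 bases (250 before to 50 after a start) were taken from RefSeq for GRCm38.p6, where 37 of the 47 members had an entry. Capitals mark matches, on either strand, to CACGTG (the core of the CLEAR element), TCACGTGA (its extended palindrome, which contains CACGTG), TCACNCCAC (a sterol regulatory element, the site of SREBPs) and ATTGG (the site of NF-Y, a cofactor of SREBPs).
Plin2, chr4:86670010-86670309, minus strand: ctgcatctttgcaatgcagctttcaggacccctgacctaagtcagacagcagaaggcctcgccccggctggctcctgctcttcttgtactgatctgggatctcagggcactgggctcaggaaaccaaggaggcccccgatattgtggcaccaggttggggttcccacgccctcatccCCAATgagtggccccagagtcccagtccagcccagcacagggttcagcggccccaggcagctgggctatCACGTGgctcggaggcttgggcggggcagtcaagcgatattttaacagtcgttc
Nr1h3, chr2:91195067-91195366, minus strand: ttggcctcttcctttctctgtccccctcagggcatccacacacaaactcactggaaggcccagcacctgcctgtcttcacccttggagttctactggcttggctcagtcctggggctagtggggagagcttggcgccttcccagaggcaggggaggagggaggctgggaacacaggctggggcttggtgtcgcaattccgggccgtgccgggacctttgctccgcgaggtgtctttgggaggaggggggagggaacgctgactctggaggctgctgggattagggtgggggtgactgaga
Acly, chr11:100527951-100528250, minus strand: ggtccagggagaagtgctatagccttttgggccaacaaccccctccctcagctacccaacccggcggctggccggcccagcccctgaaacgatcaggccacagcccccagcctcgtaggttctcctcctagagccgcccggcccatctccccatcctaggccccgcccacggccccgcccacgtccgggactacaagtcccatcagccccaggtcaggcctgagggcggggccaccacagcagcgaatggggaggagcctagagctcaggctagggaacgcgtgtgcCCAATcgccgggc
Lipe, chr7:25395938-25396237, minus strand: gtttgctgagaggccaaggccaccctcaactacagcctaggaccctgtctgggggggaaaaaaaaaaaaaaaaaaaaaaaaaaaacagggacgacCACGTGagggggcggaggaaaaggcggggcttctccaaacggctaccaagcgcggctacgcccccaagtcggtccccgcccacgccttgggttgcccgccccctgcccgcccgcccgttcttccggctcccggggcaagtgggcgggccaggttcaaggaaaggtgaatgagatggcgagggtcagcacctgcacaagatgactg
Fasn, chr11:120824498-120824797, minus strand: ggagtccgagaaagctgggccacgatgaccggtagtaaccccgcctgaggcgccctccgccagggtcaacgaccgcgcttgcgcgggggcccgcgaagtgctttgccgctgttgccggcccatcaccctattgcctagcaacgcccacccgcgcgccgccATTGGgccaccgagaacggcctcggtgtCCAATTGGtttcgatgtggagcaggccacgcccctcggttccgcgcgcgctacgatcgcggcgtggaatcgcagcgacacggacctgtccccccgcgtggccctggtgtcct
In Plin2, CACGTG starts 4 bases before the annotated start (offset -4) and ATTGG at -73 on the opposite strand. Neither of the Nr1h3 windows holds any of the 4 motifs. Acly holds ATTGG alone, 38 bases after its start on the opposite strand, and the Lipe window shown holds CACGTG at -155, whereas its other window (chr7:25390063-25390362) holds none of the 4 motifs. The Fasn window holds ATTGG 3 times, first at -90, and the other two overlap on opposite strands.

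Across members, CACGTG occurred in 9 of 51 windows (17.6%), against 7.15% of 32851 promoter windows of the same length. Those 9 windows belong to 8 of 37 genes, as both Scap windows overlap and hold the same CACGTG. By role it was found in 3 of 5 droplet and lipolysis genes with a window (Plin2, Lipe and Mgll), in 2 of 4 SREBP control genes (Insig1 and Scap), and in Abca1, Dhcr7 and Elovl5. TCACGTGA occurred in 0 of 51 windows, against 0.974% of all windows. TCACNCCAC occurred in 2 of 51 windows (3.92%), of Hmgcs1 and Acsl1, against 1.24% of all windows. ATTGG occurred in 23 of 51 windows (45.1%), against 37.4% of all windows, and in at least 1 window of all 6 sterol synthesis genes that have one. A match describes letters, not binding.

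In the comparison of CCR2neg mac-TFEB with CCR2neg CX3CR1-Cre cells, which addresses TFEB overexpression, edgeR called Plin2 alone among the 47 members. DESeq2 called 4 members (Plin2, Nr1h3, Apoe and Dgat2) and 318 of all 12795 genes, and limma-voom called 10 members and 1351 genes, where edgeR called 176 genes. The median log2 fold change of the members was 0.08, against 0.01 over all genes, and at an unadjusted p under 0.05 there were 9 higher and 5 lower members. Among the nuclear receptors and exporters, edgeR called 0 of 7, DESeq2 called Nr1h3 and Apoe, and limma-voom called Nr1h3, Pparg, Apoe and Nr1h2. Nr1h3 had 21.6, 32.5, 40.9 and 39.3 CPM in mac-TFEB libraries, against 19.2, 25.3, 12.5, 16.2 and 19.0 CPM in CX3CR1-Cre libraries. The groups overlapped in mac-TFEB library 1, and the log2 fold change was 0.87 ± 0.23 (adjusted p = 0.052). Pparg, a nuclear receptor of fatty acids, had 22.2, 23.4, 24.4 and 17.6 CPM in mac-TFEB libraries, against 11.8, 21.2, 9.87, 14.0 and 16.4 CPM in CX3CR1-Cre libraries. These overlapped in 1 library of each group, at a log2 fold change of 0.58 ± 0.20 (adjusted p = 0.15).

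Apoe had 12380, 12870, 7231 and 7014 CPM in CCR2neg mac-TFEB libraries, against 13880, 18290, 20160, 16580 and 14310 CPM in CCR2neg CX3CR1-Cre libraries. The groups did not overlap, and mac-TFEB libraries 3 and 4, those of their group with Xist over 10 CPM, were the lowest. The log2 fold change was -0.75 ± 0.23 (adjusted p = 0.11). Dgat2, which makes triglyceride for droplets, had 10.3, 6.64, 5.79 and 4.19 CPM in mac-TFEB libraries, against 8.996, 15.2, 15.2, 10.3 and 14.3 CPM in CX3CR1-Cre libraries. They overlapped through mac-TFEB library 1, and the log2 fold change was -0.93 ± 0.28 (adjusted p = 0.092). Lipe had 26.1, 14.5, 10.7 and 9.14 CPM in mac-TFEB libraries, against 20.1, 24.5, 27.4, 19.6 and 22.8 CPM in CX3CR1-Cre libraries. Library 1 alone overlapped the CX3CR1-Cre range, at a log2 fold change of -0.61 ± 0.23 (adjusted p = 0.19).

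The calls of 3 of these genes changed when library 1 of CCR2neg mac-TFEB, the one of its group with the most endothelial and mural transcripts, was left out. Without it, Lipe (-1.01, adjusted p = 0.00717), Dgat2 (-1.21, adjusted p = 0.0213) and Nr1h3 (1.03, adjusted p = 0.0175) were called beside Plin2 (0.75), and 260 of all genes were called. Without both libraries that stood apart, 386 of 12795 genes and 7 members were called: Plin2, Nr1h3 and Fdft1 higher, and Apoe (-0.88), Dgat2 (-1.20), Lipe (adjusted p = 0.0071) and Nr1h2 (-0.74), which encodes the liver X receptor LXRβ, lower. The part of other cell types in these values was not tested. Leaving out CX3CR1-Cre library 2 instead added Nr1h3 (1.00, adjusted p = 0.0265), with 163 of all genes called.

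All 9 sterol synthesis genes had log2 fold changes above 0 in this comparison, with a median of 0.37 and a range of 0.08 to 0.64. Over all genes 51.6% lay above 0. Neither edgeR nor DESeq2 called any of the 9, limma-voom called Fdft1 (0.67) and Fdps (0.59), a term for Xist called Fdft1, and the number alone as a block called Dhcr7. Library 3 was the lowest of the CX3CR1-Cre group for 7 of the 9 genes. Group means in CCR2neg mac-TFEB, CX3CR1-Cre, TFEB-TG Cre-neg and TFEB-wt Cre-neg cells were 91.5, 75.45, 91.9 and 90.9 CPM for Msmo1. In the same order they were 63.8, 49.55, 57.8 and 65.1 CPM for Hmgcs1 and 18.6, 13.1, 20.9 and 16.9 CPM for Fdps. For Idi1, Fdft1, Sqle, Lss, Cyp51 and Dhcr7 the mac-TFEB mean was the highest of these groups. Fdft1, the squalene synthase, had 12.6, 16.8, 19.9 and 21.5 CPM in mac-TFEB libraries, against 12.0, 12.97, 7.52, 12.4 and 11.8 CPM in CX3CR1-Cre libraries (log2 fold change 0.64 ± 0.23, adjusted p = 0.16). The groups overlapped through mac-TFEB library 1. Fdps, which makes farnesyl diphosphate, had a log2 fold change of 0.51 ± 0.22, and Lss, which closes the sterol ring, 0.43 ± 0.19. Of the exon bases of Fdft1, 18.3% lie within exons of Ctsb on the opposite strand, and of Fdps 26.7% overlap the gene model Gm43738. The libraries carry no strand information, so reads of these partners cannot be told apart and both values are uncertain.

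The genes that control SREBPs had log2 fold changes below 0, with a median of -0.31 over 4 genes, and edgeR, DESeq2 and limma-voom called 0 of 4. Scap, the escort of SREBPs, was -0.56 ± 0.30, Insig1, which retains that escort in the endoplasmic reticulum, -0.43 ± 0.21, and Srebf2, the sterol-directed SREBP, -0.18 ± 0.22. Of 7 fatty acid synthesis genes these tools called 0. Acly was at 0.16 ± 0.13. The elongases Elovl5 and Elovl1 had log2 fold changes of 0.27 ± 0.13 and 0.15 ± 0.09, and Scd2, which shares close sequence with Scd1 so that their reads could be split, 0.44 ± 0.26. The 4 acyl-CoA synthetases, which activate fatty acids, ranged from -0.39 to -0.01, with Acsl3 at -0.39 ± 0.25, Acsl1 at -0.13 ± 0.12 and Acsl4 at -0.11 ± 0.10. The 7 beta oxidation genes ranged from 0.05 to 0.29. Among them, 42.9% of the exon bases of Acadvl lie within exons of Dvl2 on the opposite strand, so its value is uncertain. Smaller shares overlap opposite-strand genes in Scap (13.2%) and Hmgcs1 (12.1%). Hadha and Hadhb, the subunits of the mitochondrial trifunctional protein, were at 0.29 ± 0.11 and 0.27 ± 0.11 (adjusted p = 0.19 and 0.24 with edgeR, though limma-voom called Hadha), and Acadm, the medium chain dehydrogenase, at 0.10 ± 0.10. Msr1 was at -0.01 ± 0.16.

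In CCR2pos cells, 0 of 47 members were called between mac-TFEB and CX3CR1-Cre with edgeR, DESeq2 or limma-voom, and 0 had an unadjusted p under 0.05, against 0.0391% of all genes called. Plin2 had 2043, 1401, 1608 and 1604 CPM in CCR2pos mac-TFEB libraries, against 1361, 1288, 2074, 1335 and 1656 CPM in CCR2pos CX3CR1-Cre libraries. These overlapped throughout, and the log2 fold change of 0.11 ± 0.14 had a 95% interval of -0.17 to 0.39. Nr1h3 was at 0.19 ± 0.24, Acadm at -0.16 ± 0.10 and Msr1 at -0.11 ± 0.16. The test of the difference between fractions (CCR2pos effect minus CCR2neg effect) called 0 of 47 members and 0.0% of all genes with edgeR. It gave -0.62 ± 0.20 for Plin2 (unadjusted p = 0.00406, adjusted p = 1.00) and -0.68 ± 0.33 for Nr1h3 (unadjusted p = 0.0494), the 2 members with an unadjusted p under 0.05. A difference between the fractions in the response to TFEB was therefore not shown for any member.

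**Figure D2:**
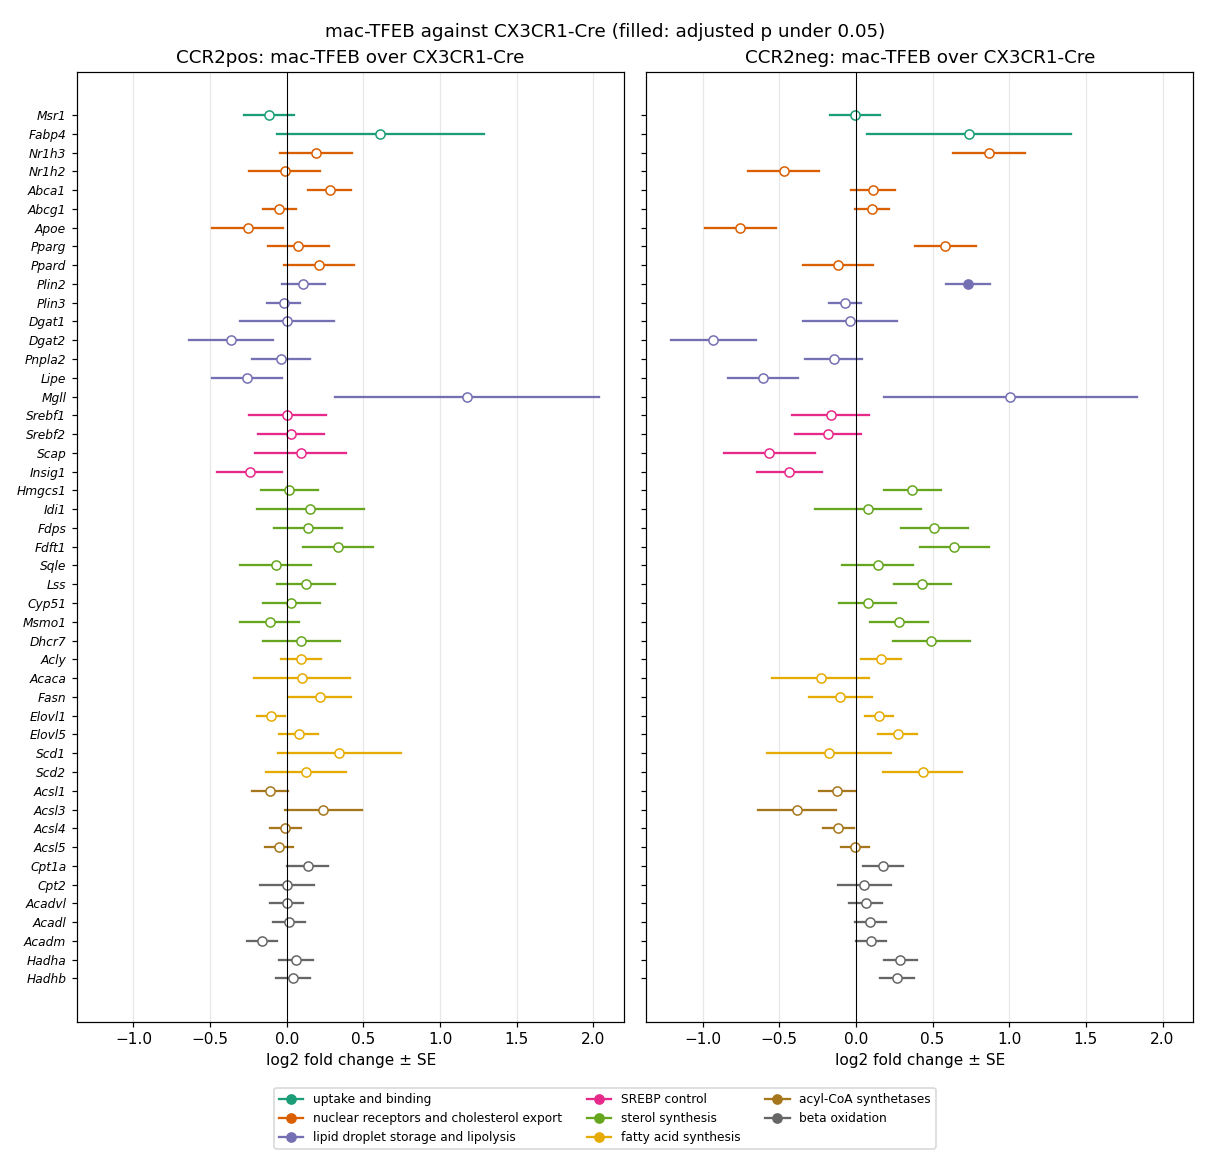
The log2 fold change of mac-TFEB over CX3CR1-Cre (horizontal axis, points, with bars of 1 SE) for the 47 members (vertical axis), coloured by role, in CCR2pos cells (left) and CCR2neg cells (right). Filled points have an adjusted p under 0.05. Plin2 in CCR2neg cells (0.73) is the filled point, and the 9 sterol synthesis genes lie right of 0 in CCR2neg cells. Over all genes 51.6% lie above 0 in that comparison.

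Cre-neg cells with and without the cassette were compared next. As given above, Tfeb was higher in the TFEB-TG Cre-neg libraries, so this comparison does not separate the cassette from raised Tfeb. In CCR2neg cells 0 of 47 members were called with edgeR, against 0.406% of all genes, with 0 higher and 8 lower at an unadjusted p under 0.05. DESeq2 called Apoe and Lipe, and limma-voom called Apoe. Apoe had 14100, 8664, 3879 and 7938 CPM in CCR2neg TFEB-TG Cre-neg libraries, against 15000, 14840, 15610, 15960 and 16410 CPM in CCR2neg TFEB-wt Cre-neg libraries, a log2 fold change of -0.85 ± 0.23 (adjusted p = 0.080). The groups did not overlap, with library 1 closest to the TFEB-wt range. Lipe had 10.6, 8.70, 7.75 and 9.60 CPM in TFEB-TG Cre-neg libraries, against 16.9, 9.19, 18.3, 16.2 and 17.3 CPM in TFEB-wt Cre-neg libraries (log2 fold change -0.77 ± 0.23, adjusted p = 0.10). Only TFEB-wt library 2 fell within the TFEB-TG range. Dgat2 had 12.3, 6.07, 5.04 and 5.45 CPM in TFEB-TG Cre-neg libraries, against 7.28, 11.8, 9.19, 9.72 and 13.3 CPM in TFEB-wt Cre-neg libraries (-0.52 ± 0.28), and library 1 alone overlapped. Without TFEB-TG Cre-neg library 1, Apoe (-1.18, adjusted p = 0.00686) and Nr1h2 (-0.94, adjusted p = 0.0229) were called, with 440 of all genes. Without both libraries that stood apart 443 of 12795 genes, against 52 with them, and 4 members were called, namely Apoe, Lipe, Nr1h2 and Srebf1, which encodes the SREBP of fatty acid synthesis. Without TFEB-wt Cre-neg library 2, Lipe was called, with 177 of all genes.

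Every CCR2neg TFEB-TG library, with or without Cre, had less Apoe than the lowest TFEB-wt Cre-neg library. Library 1 of TFEB-TG Cre-neg (14100 CPM) still lay above library 1 of CX3CR1-Cre (13880 CPM), which is also TFEB-wt. For Dgat2, library 1 of both TFEB-TG groups lay within the TFEB-wt ranges, and for Lipe library 1 of mac-TFEB lay above every TFEB-wt Cre-neg library. Because Tfeb was also higher in TFEB-TG Cre-neg cells, the subtraction that follows does not take away the cassette alone. The difference of differences, which takes the TFEB-TG effect in Cre-neg cells from that in Cre cells, was 0.09 ± 0.33 for Apoe, 0.16 ± 0.32 for Lipe and -0.42 ± 0.39 for Dgat2. For Nr1h3 it was 1.10 ± 0.33 (unadjusted p = 0.00223, adjusted p = 0.99), for Plin2 0.46 ± 0.20 (unadjusted p = 0.0277) and for Hmgcs1 0.54 ± 0.26. These 3 had an unadjusted p under 0.05, and edgeR called 0 of 47 members and 0.0% of all genes. With the replicate block 0 of 47 members and 32 of 12795 genes were called. In CCR2pos cells the same difference called 0 of 47 members and 0.0% of all genes, with 0 members at an unadjusted p under 0.05. The cassette in CCR2pos Cre-neg cells called 0 of 47 members with edgeR, DESeq2 or limma-voom, against 0.0313% of all genes, and 0 had an unadjusted p under 0.05. The comparisons in this and the preceding paragraphs share the same libraries, so their values are not independent of each other.

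With the cassette present in both groups, mac-TFEB cells were set against TFEB-TG Cre-neg cells: 0 of 47 members were called in CCR2neg cells, against 0.156% of all genes, and 0 of 47 in CCR2pos cells, against 0.0156%. DESeq2 and limma-voom called none either. The replicate block also called none, with 301 of all genes called in CCR2neg cells and 26 in CCR2pos cells. At an unadjusted p under 0.05 the CCR2neg comparison had 5 higher and 1 lower members, and the CCR2pos comparison 0. Among them, Lipe was at 0.72 ± 0.24 and Fasn, the fatty acid synthase, at 0.62 ± 0.22 in CCR2neg cells (adjusted p = 0.32 and 0.35). Abca1 was the lower one at -0.34 ± 0.15. Lipe ranged from 9.14 to 26.05 CPM in these mac-TFEB libraries, highest in library 1, and from 7.75 to 10.6 CPM in the TFEB-TG Cre-neg libraries. Values without the libraries that stood apart are not given for this comparison.

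Within each group, CCR2pos and CCR2neg macrophages were also compared. In TFEB-TG Cre-neg cells 2 of 47 members were higher in the CCR2pos fraction and 0 lower, against 3.26% of all genes called. Lipe had 21.6, 21.8, 12.8 and 14.8 CPM in CCR2pos libraries, against 10.6, 8.70, 7.75 and 9.60 CPM in CCR2neg libraries, without overlap (log2 fold change 0.96 ± 0.24, adjusted p = 0.0211). Fasn had 9.14, 10.0, 7.99 and 6.45 CPM in CCR2pos libraries, against 5.38, 4.62, 5.58 and 3.91 CPM in CCR2neg libraries, also without overlap (0.79 ± 0.22, adjusted p = 0.0378). Of the exon bases of Lipe, 15.6% overlap 4732471J01Rik on the opposite strand, so its reads are uncertain. Both calls were lost when CCR2pos library 1 or 2, or CCR2neg library 2 or 3, was left out, and Fasn also without CCR2pos library 3 or CCR2neg library 4. Scaling to library size alone ended both calls and gave Acadm (-0.34) and Elovl1 (-0.36) instead. That scaling put the median of all genes at -0.10, against -0.03 with TMM. With limma-voom both calls were also lost and Apoe (1.00) was called, and a fit to the libraries of this comparison alone called neither Lipe nor Fasn. In CCR2neg library 1 of this group the summed cardiomyocyte markers were 519 CPM, against 33.7 to 60.7 CPM in the other 3. Without both libraries that stood apart, where 600 of all genes were called, Lipe was 1.00 and Fasn 0.81, and Apoe (1.08), Dgat2 (0.91) and Elovl1 (-0.38) were called with them.

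With the replicate block, 10 of 47 members were called in TFEB-TG Cre-neg cells, against 9.6% of all genes. Apoe (0.88 ± 0.16), Lipe (0.91 ± 0.20), Fasn (0.78 ± 0.23), Dgat2 (0.63 ± 0.19) and Insig1 (0.35 ± 0.11) were higher in CCR2pos cells. Nr1h3 (-0.66 ± 0.19), Fdps (-0.60 ± 0.13), Msr1 (-0.41 ± 0.11), Msmo1 (-0.37 ± 0.09) and Elovl1 (-0.29 ± 0.07) were lower. This share of members is above that of all genes, and the excess was not tested.

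In mac-TFEB cells 0 of 47 members were called between fractions with edgeR, against 0.539% of all genes, with 2 higher and 2 lower at an unadjusted p under 0.05 and none called by DESeq2 or limma-voom. With the block 3 were called, against 3.76% of all genes: Apoe was higher in CCR2pos cells (0.57 ± 0.16), and Dhcr7, the last enzyme of cholesterol synthesis (-0.41 ± 0.11), and Msmo1 (-0.35 ± 0.09) were lower. In CX3CR1-Cre cells 0 of 47 were called with edgeR, DESeq2 or limma-voom, against 0.797% of all genes, with 2 higher and 0 lower at an unadjusted p under 0.05. With the block 3 were called, against 4.31% of all genes: Elovl5 (0.40 ± 0.10) and Plin2 (0.35 ± 0.09) were higher in CCR2pos cells and Mgll, the monoglyceride lipase (-1.57 ± 0.46), was lower. In TFEB-wt Cre-neg cells 0 of 47 were called with edgeR, against 2.35% of all genes, with 2 higher and 5 lower at an unadjusted p under 0.05, and DESeq2 and limma-voom each called Msr1. Msr1 had 464, 513, 406, 536 and 540 CPM in CCR2pos libraries there, against 688, 715, 476, 684 and 875 CPM in CCR2neg libraries (log2 fold change -0.48 ± 0.16, adjusted p = 0.11). The median log2 fold change of the 9 sterol synthesis genes between fractions was -0.29 in mac-TFEB, -0.01 in CX3CR1-Cre, -0.24 in TFEB-TG Cre-neg and -0.28 in TFEB-wt Cre-neg cells, beside -0.01 to -0.03 over all genes.

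**Figure D3:**
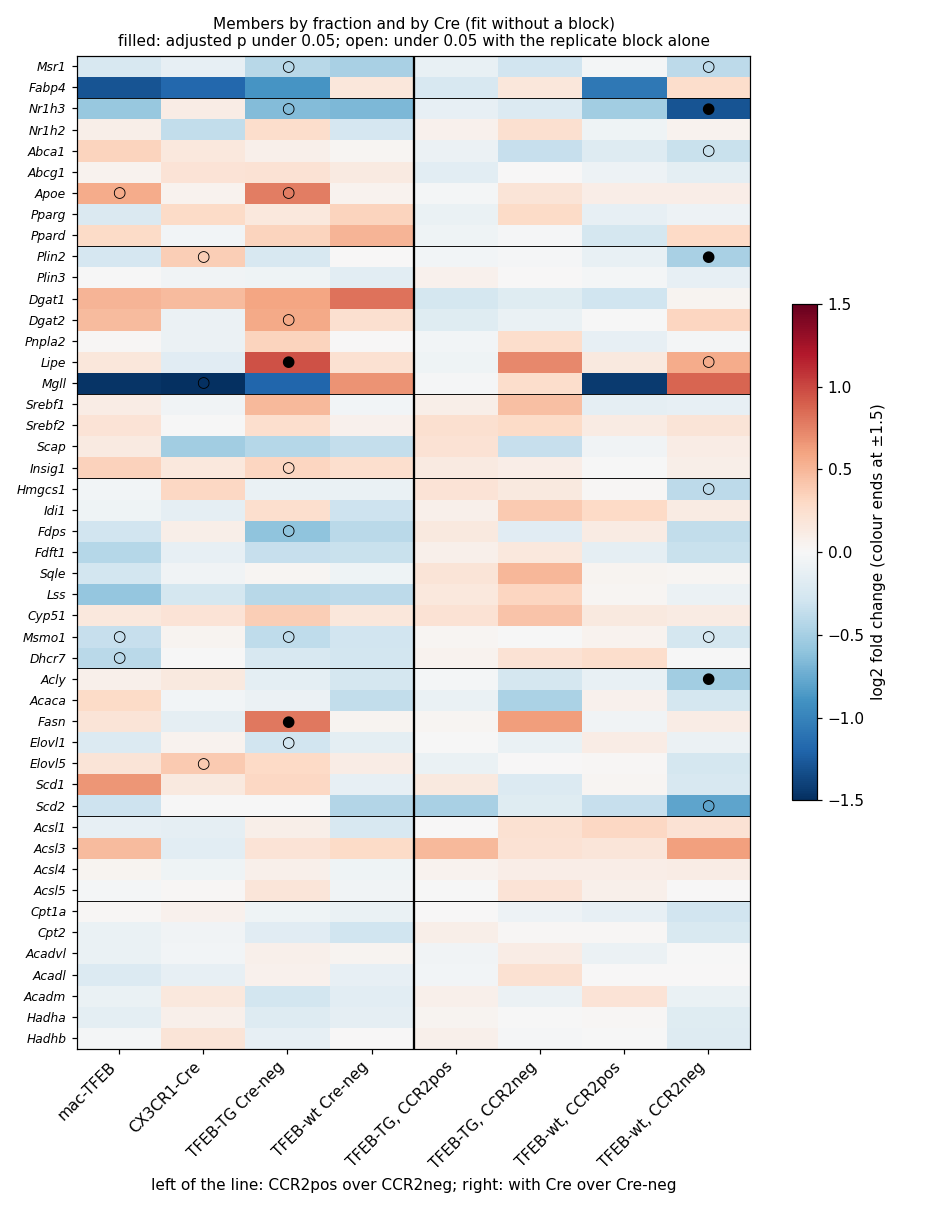
The log2 fold change (colour, ends at ±1.5) of the 47 members (rows, in role order with lines between roles) for CCR2pos over CCR2neg in 4 groups (left of the vertical line) and for cells with Cre over Cre-neg cells in each genotype and fraction (right). Filled circles mark an adjusted p under 0.05, and open circles a call with the replicate block alone. Open circles were not drawn between fractions of TFEB-wt Cre-neg cells, where the block was not relied on and would call Dgat1, Msmo1, Msr1 and Nr1h3. The filled circles are Lipe and Fasn in TFEB-TG Cre-neg cells and Nr1h3, Plin2 and Acly in CCR2neg TFEB-wt cells.

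Fabp4, a fatty acid-binding protein of macrophages, adipocytes and capillary endothelium, and Mgll were the most variable members between libraries of a group. Fabp4 had 194, 57.5, 64.6 and 49.7 CPM in CCR2neg mac-TFEB libraries, against 13.7, 53.3, 21.0, 118 and 68.1 CPM in CCR2neg CX3CR1-Cre libraries (log2 fold change 0.74 ± 0.67, adjusted p = 0.67). Mgll, named after its values were seen, had 52.0, 10.8, 12.8 and 10.3 CPM in the mac-TFEB libraries, against 2.43, 8.53, 5.55, 22.2 and 14.5 CPM in the CX3CR1-Cre libraries (1.01 ± 0.83). The log2 fold change of Fabp4 was 0.06 without mac-TFEB library 1 and 1.22 without CX3CR1-Cre library 4. For both genes the groups overlapped, and in both groups the same library was the highest. The library with the largest sum of 8 endothelial markers within its group was also the highest for Fabp4 in 7 of 8 groups and for Mgll in 7 of 8 groups. For both genes the top library was also that of the fibroblast markers in 6 of 8 groups, of the mural markers in 6 and of the cardiomyocyte markers in 5. That sum ranged from 22.0 to 236 CPM in CCR2neg mac-TFEB libraries and from 21.2 to 140 CPM in CCR2neg CX3CR1-Cre libraries. Of 7 adipocyte marker genes 0 had a row in the table analysed here. The part of RNA from these cell types in the values of both genes was not tested.

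**Figure D4:**
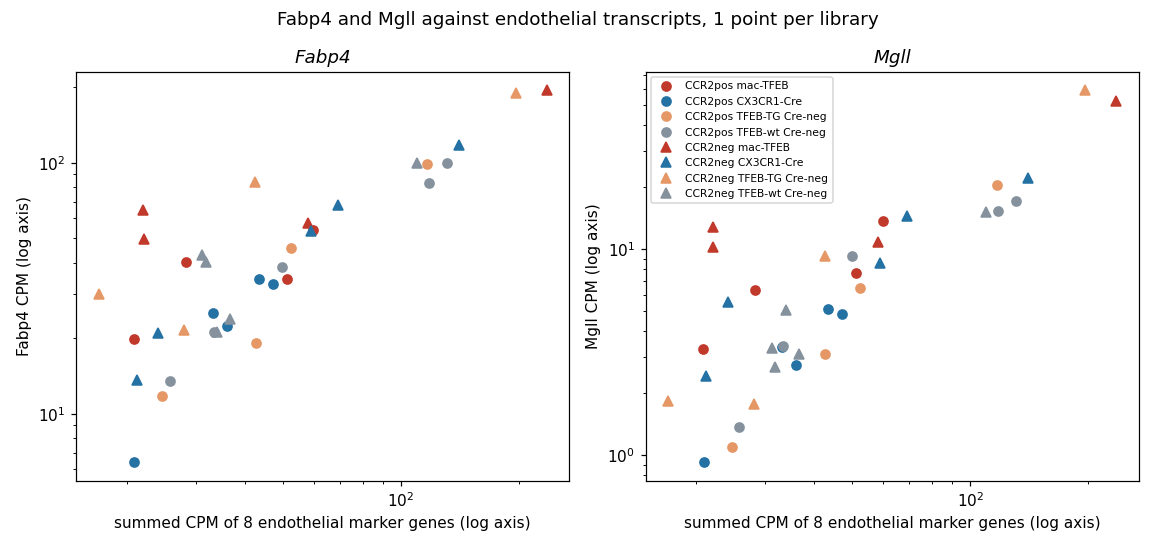
Fabp4 (left) and Mgll (right) in CPM (vertical, log axis) against the summed CPM of 8 endothelial marker genes (horizontal, log axis), with 1 point per library. Circles are CCR2pos and triangles CCR2neg libraries, coloured by group. The highest triangles are library 1 of CCR2neg mac-TFEB (236 CPM of markers) and library 1 of CCR2neg TFEB-TG Cre-neg (197 CPM).

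Among 103 other genes of the same pathways, listed by role, 92 were measured. In CCR2neg cells, 6 of 92 were higher in mac-TFEB than in CX3CR1-Cre cells and 0 were lower, with a median log2 fold change of 0.10. Over all genes 118 were higher and 58 lower (1.38% in all). Of 20 cholesterol handling genes 4 rose: Nceh1, a cholesteryl ester hydrolase (0.69 ± 0.12), Soat1, which esterifies cholesterol (0.67 ± 0.14), Lipa, the lysosomal acid lipase (0.58 ± 0.11), and Npc1, the lysosomal cholesterol exporter (0.39 ± 0.09). The other 2 were Fabp5, a fatty acid-binding protein (1.45 ± 0.38), and Hadh, a dehydrogenase of beta oxidation (0.44 ± 0.10). Fabp5 varied widely between mac-TFEB libraries and overlapped the TFEB-TG Cre-neg libraries, with values given under other observations. Levels of Nceh1, Soat1 and Hadh in Cre-neg cells are not given here. For Npc1, mac-TFEB libraries had 142, 144, 146 and 142 CPM, TFEB-TG Cre-neg libraries 101, 129, 97.7 and 131 CPM, CX3CR1-Cre libraries 111, 112, 120, 101 and 104 CPM and TFEB-wt Cre-neg libraries 126, 143, 119, 119 and 111 CPM. Its mac-TFEB values lay above those of the TFEB-TG Cre-neg and CX3CR1-Cre libraries, whereas 1 TFEB-wt Cre-neg library reached the same level. For Lipa, mac-TFEB libraries had 1015 to 1444 CPM, TFEB-TG Cre-neg libraries 1141 to 1450 CPM, CX3CR1-Cre libraries 792 to 1040 CPM and TFEB-wt Cre-neg libraries 998 to 1425 CPM. As for Plin2, the lowest Lipa values were those of CX3CR1-Cre libraries.

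In CCR2pos cells 0 of the 92 were called between mac-TFEB and CX3CR1-Cre with edgeR, with 1 higher and 3 lower at an unadjusted p under 0.05, and the cassette comparisons called 0 in either fraction. Between CCR2neg CX3CR1-Cre and TFEB-wt Cre-neg cells, Ch25h, which makes 25-hydroxycholesterol, rose (1.00 ± 0.28). There Olr1, a receptor for oxidized lipoprotein (-2.14 ± 0.38), Apoc2, the activator of lipoprotein lipase (-1.11 ± 0.24), and Lipa (-0.39 ± 0.11) fell. Between fractions, Cd36, a scavenger receptor and fatty acid transporter, was lower in CCR2pos cells of 3 groups, by log2 fold changes of -0.94 ± 0.20 in mac-TFEB, -0.91 ± 0.20 in TFEB-TG Cre-neg and -0.76 ± 0.18 in TFEB-wt Cre-neg cells. Cd36 had 368, 317, 336 and 263 CPM in CCR2pos mac-TFEB libraries, against 668, 629, 626 and 538 CPM in CCR2neg mac-TFEB libraries, without overlap. Lipa was lower in the CCR2pos fraction of TFEB-TG Cre-neg cells (-0.45 ± 0.12), and Mlxipl, which encodes the carbohydrate-responsive factor ChREBP, in that of TFEB-wt Cre-neg cells (-1.92 ± 0.53).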

How the data were processed

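PolyA RNA of 36 libraries of flow-sorted cardiac macrophages was sequenced without strand information, per the labels' protocols. HTSeq, Bowtie2, TopHat2 2.0.10, TopHat, edgeR, DESeq and the GRCm38 build appear in the submitters' processing notes. The authors deposited whole-number read counts per gene for 12795 genes. CPM and log2 values were computed here. Members were matched by symbol, and positions and exon lengths came from GENCODE vM21 (GRCm38) by gene identifier.

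Comparisons were contrasts of 8 group means over all 36 libraries with TMM scaling, tested by quasi-likelihood in edgeR 4.0.16 under R 4.3.3, with Benjamini-Hochberg adjustment over 12795 genes and a threshold of 0.05. A standard error is the size of the log2 fold change over the square root of F, and intervals are 95%. The expression filter (minimum count 10) removed 0 genes. Totals were 13797484 to 32645783 counts, so spread between libraries (common dispersion 0.0943) sets the precision of all but the lowest genes. Chi-square over its degrees of freedom was 19.9 to 118 in the 64 pairs of replicates, so none was a repeat of another. The fit was tested on simulated data.

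Replicate numbers were checked on deviations from group means. Libraries of 1 genotype with the same number correlated at a mean of 0.35, over 0.1 in 53 of 54 pairs, so genotype and number (9 levels) served as a block within a genotype, except between fractions of TFEB-wt Cre-neg cells, where the lowest correlation was 0.096. Across genotypes the mean was -0.12, so there the number pairs nothing.

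Named genes are members called in any of 15 comparisons and, per role, the 3 with the smallest p in the TFEB comparisons. Alternatives were DESeq2 size factors, library size alone, a stricter filter (1 CPM in 9 libraries), no filter, limma-voom (limma 3.58.1) with quality weights, DESeq2 1.42.0's Wald test, the comparison's libraries alone, the blocks, a term for Xist (10 CPM) and each library left out. A fit without 2 libraries was added after seeing the data. The members and lists were chosen with earlier results of these data known.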

Additional observations from a re-analysis of the deposited data

Results flagged for a closer look

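Among 200 sets of values of a named member within a group, 11 had a highest or lowest library far from the others (gap to the nearest over the range above Dixon's 95% critical value). Chance flags about 1 in 20 such sets, so 11 of 200 is near that rate. In CCR2neg TFEB-TG Cre-neg cells, library 1 was high for Dgat2 (12.3 CPM, others 5.04 to 6.07) and for Srebf2 (25.8 CPM, others 12.5 to 14.5), and it is the library with the most cardiomyocyte and endothelial marker transcripts of that group. In the same group library 2 was high for Elovl5 (150.9 CPM), and library 3 was low for Insig1 (44.4 CPM, others 84.8 to 88.6) and high for Pparg (22.3 CPM). Fabp4 was high in CCR2neg mac-TFEB library 1 (194 CPM, others 49.7 to 64.6) and in CCR2neg TFEB-wt Cre-neg library 4 (99.9 CPM, others 21.2 to 43.0). In CCR2neg CX3CR1-Cre library 3 Fdft1 was low (7.52 CPM, others 11.8 to 12.97), and in CCR2neg TFEB-wt Cre-neg library 2 Lipe was low (9.19 CPM, others 16.2 to 18.3). In CCR2pos cells, CX3CR1-Cre library 3 was low for Msr1 (378 CPM, others 488 to 521), and mac-TFEB library 1 was high for Acsl4 (182 CPM, others 176 to 178).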

How the results depend on the processing

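Members called between CCR2neg mac-TFEB and CX3CR1-Cre cells were 1 in the reported fit, 2 with library size alone, 4 with DESeq2's Wald test, 5 with a replicate block of number alone, 6 with a term for Xist, 10 with limma-voom and 7 without both libraries that stood apart, and 1 to 4 with a library left out. Over all 12795 genes the calls were 176 in the reported fit, 174 with library size alone, 318 with DESeq2, 310 with number alone, 428 with the Xist term, 1351 with limma-voom and 386 without both libraries, so calls mostly grew beyond the members too. Plin2 was among those called under each of these. For the cassette in CCR2neg cells the count was 0 in the reported fit, 1 with limma-voom, 2 with DESeq2, 1 with number alone as a block, 2 with the Xist term, 4 without both libraries (over all genes 52, 102, 288, 111, 285 and 443 in the same order), and 0 to 2 with a library left out. Between fractions of TFEB-TG Cre-neg cells 2 became 1 with limma-voom (Apoe, in place of Lipe and Fasn), 4 with DESeq2, 0 with its libraries alone, 10 with the replicate block, 5 without both libraries (over all genes 417, 480, 635, 68, 1228 and 600 in the same order), and 0 to 4 with a library left out. Between fractions of TFEB-wt Cre-neg cells 0 became 1 with library size alone, limma-voom, DESeq2 or the Xist term, 4 with the replicate block (Dgat1, Msmo1, Msr1 and Nr1h3, with 808 of 12795 genes called, against 301 without it), and 0 to 1 with a library left out. The block gave 3 in place of 0 between fractions of mac-TFEB and of CX3CR1-Cre cells, where the libraries alone gave 1 (Elovl5), and 9 in place of 3 between CCR2neg CX3CR1-Cre and TFEB-wt Cre-neg cells, where leaving out a library gave 1 to 4. The block changed no other count, and no named member reversed. The causes were not tested. Library size alone moved the median of all genes between fractions of CX3CR1-Cre cells to -0.12, against -0.01 with TMM. Numbers shared across genotypes correlated over 0.1 in 8 of 64 pairs. Groups of 4 or 5 libraries limit these comparisons, and members of few CPM, such as Idi1 and Acaca, have wide errors.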

Other observations

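Libraries of CCR2neg mac-TFEB cells varied among themselves in Tfeb and in several lipid genes, and no relation between them was tested. In libraries 1 to 4, Tfeb was 335, 250, 98.1 and 67.4 CPM and Pnpla2, the adipose triglyceride lipase, was 140, 127, 96.2 and 88.4 CPM. Fabp5 was 25.1, 50.4, 134 and 111 CPM in the same libraries, and 41.8, 52.9, 146 and 91.5 CPM in CCR2neg TFEB-TG Cre-neg libraries 1 to 4. Xist was 0.17, 0.16, 126 and 120 CPM in the mac-TFEB libraries and 0.20, 0.21, 120 and 130 CPM in those Cre-neg libraries. Libraries 1 and 2 of both groups thus also differ from libraries 3 and 4 in Xist, and its relation to these values was not tested. Library 1 of CCR2neg mac-TFEB cells is also the one with 236 CPM of endothelial markers, and Pnpla2 was highest in the library with the most endothelial markers in 6 of 8 groups. The part of other cell types in these values was not tested.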
